A study of Homo sapiens with 16 samples.

Results

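The MED1 peaks at the loci of 2 microRNA host genes, MIR31HG on chromosome 9 and MIR100HG on chromosome 11, were chosen by position, as all peaks of 6 deposited lists that overlap a fixed interval (hg19). The MIR31HG interval, chr9:21400000-21800000, was set to take in the host gene and the stretch up to MTAP, and 68 peaks fell in it. The MIR100HG interval, chr11:121900000-122150000, held 23. Together they made up 91 of the 3464 peaks of all lists. The intervals were proposed with the peaks of these lists in view, so numbers and folds of peaks in them are described here and not tested.

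MED1 is a subunit of Mediator, the complex that connects transcription factors at enhancers with RNA polymerase II, and here ChIP-seq located it in HCT116, an established cell line from a human colorectal carcinoma. Unmodified (wild-type, WT) cells received DMSO as mock or Nutlin-3a for 1 h. Nutlin-3a keeps MDM2 from p53 and so induces p53 signalling. The edited MED14-AID line has the genotype OsTir1+/-;Med14-AID+/+, made with CRISPR/Cas9. Its MED14, the subunit that ties the parts of Mediator together, is fused to a degron (AID) that auxin turns into a destruction signal with the help of the plant F-box protein OsTIR1. These cells received water as mock or 500 µM auxin for 3 h, and each was left without Nutlin-3a or was followed by Nutlin-3a for 1 h. The labels name no mock for Nutlin-3a in the MED14-AID cells and do not say whether the line is 1 clone. Of 16 samples, 8 were MED1 libraries and 8 inputs. Each WT list is given for 2 MED1 libraries together, with peaks named as merged, and how they were merged is not given in the sources used here. Each of the 4 MED14-AID lists came from 1 library. No list gives read counts, so depth is unknown, and replicate error is not known for any value below. The loss of MED14 protein after auxin was not measured in these files.

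MIR31HG is a long noncoding RNA gene whose transcript carries miR-31, a microRNA often raised in colorectal tumours. It lies between the type I interferon genes and MTAP, which encodes the methionine salvage enzyme methylthioadenosine phosphorylase and neighbours the tumour suppressor gene CDKN2A. MIR100HG is the host of miR-100, let-7a-2 and miR-125b-1, and let-7 microRNAs are known for restraining growth-promoting genes such as RAS and MYC. In the RefSeq gene table (GRCh38.p14), MIR31 and the interferon gene IFNE lie inside MIR31HG, and the next protein-coding genes are IFNA1 on one side and MTAP on the other. MIR125B1, BLID, MIRLET7A2, MIR10526 and MIR100 lie inside MIR100HG, with SORL1 and UBASH3B as the nearest protein-coding neighbours. That table and the peaks are on different builds, so no peak was placed against an exon, a promoter or a microRNA hairpin.

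The mature 5′-arm products of the hosted microRNAs are shown because they are what the host loci deliver, and the capitals mark the seed (bases 2 to 8) that pairs with targets (RefSeq, GRCh38.p14, each gene on the minus strand).
hsa-miR-31-5p: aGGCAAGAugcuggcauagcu
hsa-miR-100-5p: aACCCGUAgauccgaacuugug
hsa-let-7a-5p: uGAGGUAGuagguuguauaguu
hsa-miR-125b-5p: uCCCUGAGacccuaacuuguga
The seeds all differ, so these products fall into separate families. The seed of miR-31-5p was found in 0 other mature human microRNA names of the table. That of miR-100-5p was shared with miR-99a-5p and miR-99b-5p, that of miR-125b-5p with 2 names including miR-125a-5p, and that of let-7a-5p with 10.

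The start of MIR31HG differs in base composition from those of MIR100HG. The RefSeq promoter of MIR31HG (250 bases before to 50 after the annotated start, GRCh38.p14 chr9:21559749-21560048, minus strand) is shown with each GC box (GGGCGG, searched on both strands) in capitals. These are GRCh38 positions and were not converted to hg19, so whether a peak covers this promoter was not examined.
MIR31HG promoter: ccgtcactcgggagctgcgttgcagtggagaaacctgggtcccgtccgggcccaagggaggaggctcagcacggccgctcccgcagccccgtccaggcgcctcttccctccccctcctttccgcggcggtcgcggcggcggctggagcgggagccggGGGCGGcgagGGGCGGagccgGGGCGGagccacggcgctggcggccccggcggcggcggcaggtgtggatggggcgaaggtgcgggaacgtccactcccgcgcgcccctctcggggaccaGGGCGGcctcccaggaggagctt
It held 4 GC boxes and 39 CpG dinucleotides, and its GC content was 77.7%, a value passed by 4.93% of the 35116 promoters in the table. The 6 annotated MIR100HG promoters ranged from 41.7 to 53% GC with 2 to 10 CpG dinucleotides, and 0 of 6 held a GC box, against 45.0% of all promoters. An AP-1 motif (TGANTCA, either strand) was in neither gene's promoters and in 7.71% of all. A p53 half-site was in 1 of the 6 MIR100HG promoters, not in that of MIR31HG, and in 6.63% of all. Such matches describe letters only.

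A large part of the MED1 peaks of chromosome 9 lay in the MIR31HG interval. WT cells had 18 peaks there with DMSO and 22 with Nutlin-3a. MED14-AID cells had 14 in the water list and 11 after water plus Nutlin-3a, then 2 with auxin and 1 with auxin and Nutlin-3a. These were 18 of the 45 chromosome 9 peaks in WT DMSO, 22 of 54 with Nutlin-3a (40.7%), 14 of 21 with water (66.7%) and 11 of 19 with water and Nutlin-3a (57.9%). With auxin alone, 2 of 2 chromosome 9 peaks lay in the interval, and with auxin and Nutlin-3a 1 of 2 did. Of whole lists, the MIR31HG members were 1.63% of 1106 peaks in WT DMSO and 1.75% of 1254 in WT Nutlin-3a. In the water lists they were 3.02% of 463 without and 2.11% of 522 with Nutlin-3a. In the auxin lists they were 3.77% of 53 without and 1.52% of 66 with Nutlin-3a. The peaks covered 28.1 kb in WT DMSO, which was 2.46% of all peak sequence of that list, and 34.4 kb (2.52%) with Nutlin-3a. With water they covered 13.7 kb (2.93%).

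Fewer MED1 peaks lay in the MIR100HG interval, which is 250 kb long against 400 kb for that of MIR31HG. They stood within 43.0 kb, and those of MIR31HG within 232 kb. The interval held 8 peaks in WT DMSO, 7 in WT Nutlin-3a, 4 with water, 4 after water plus Nutlin-3a, and 0 in each auxin list. These were 0.723 and 0.558% of the WT lists and 0.864 and 0.766% of the water lists, without and with Nutlin-3a. The auxin lists are short, with 53 and 66 peaks in all. The MIR100HG peaks were also set against their chromosome. They took 16.0% of the 50 chromosome 11 peaks in WT DMSO and 10.4% of 67 with Nutlin-3a. The peaks covered 9.29 kb and 9.67 kb in the WT lists, and 2.55 kb and 3.17 kb in the water lists.

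Merging overlapping peaks of the 6 lists gave 20 positions at MIR31HG, numbered here from low to high coordinate, and 8 at MIR100HG. The MIR31HG positions ran over 232 kb, from 21558307 to 21790047, and the first 158 kb of the interval held no peak in any list. They formed 3 groups, positions 1 to 7, 8 to 16 and 17 to 20, separated by empty stretches of 53.6 and 66.1 kb. The MIR100HG positions ran over 43.0 kb, from 122031428 to 122074381. Of them, position 1 stood 18.4 kb from the other 7. MED1 was listed in all 4 lists without auxin at 10 of the 20 MIR31HG positions and 3 of the 8 MIR100HG positions. Together these 13 of 28 were 46.4%, against 18.2% of the 1584 positions of the series. Positions in 1 list only numbered 5 of 28, against 46.0% in the series.

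**Figure D1:**
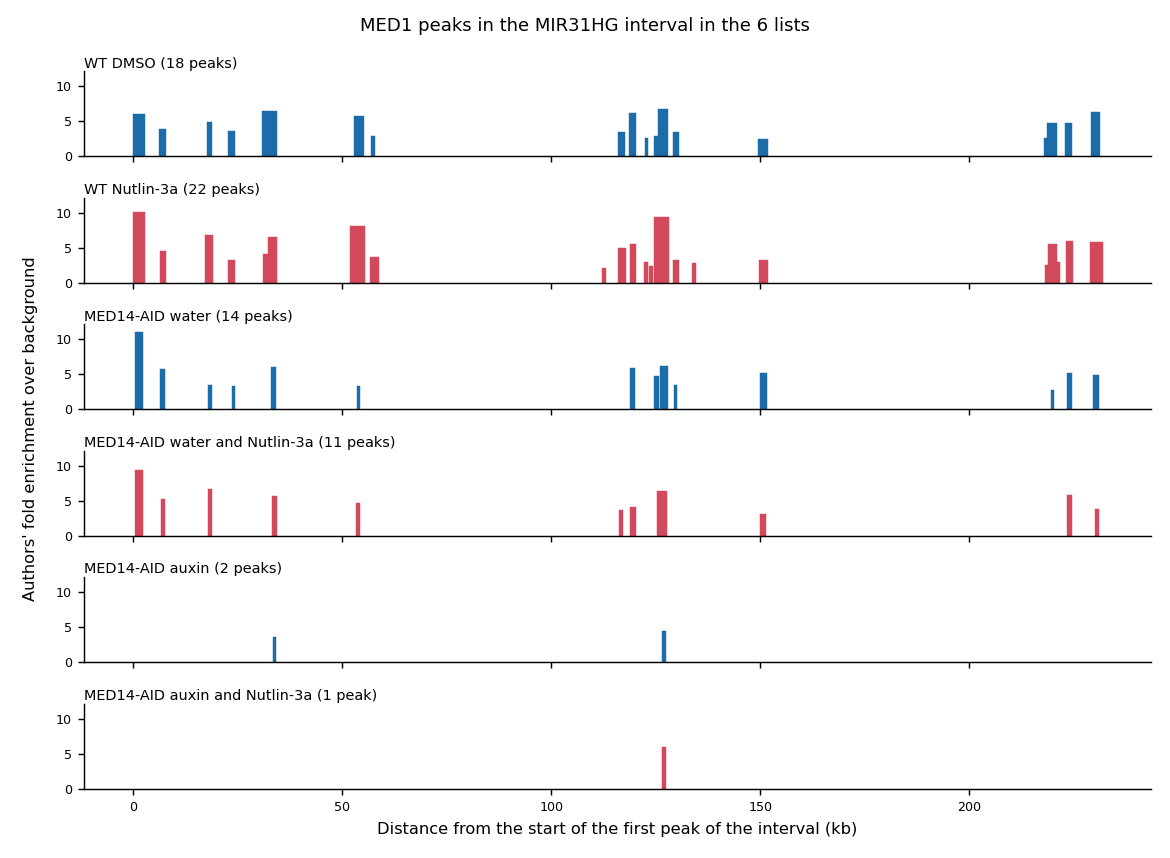
MED1 peaks of the MIR31HG interval, 1 panel per list, with distance from the start of the first peak (kb) across and the authors' fold enrichment over background up; each bar is 1 peak and is as wide as the peak. The groups of bars stand in the same places in the 4 lists without auxin, while 2 bars are left with auxin and 1 with auxin and Nutlin-3a.

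The strongest MIR31HG position by fold was position 1, chr9:21558307-21561016. Fold here is the authors' enrichment of a peak over background, which ranks peaks within a list and measures no change between lists. Position 1 had a fold of 5.97 in WT DMSO and 10.0 in WT Nutlin-3a. With water it was 11.03, and with water and Nutlin-3a 9.39. By fold it ranked 80th of 1106, 22nd of 1254, 15th of 463 and 23rd of 522 in those lists. It was the highest member in 3 of them, and in WT DMSO positions 5, 10, 13 and 20 were higher. Its peak was 2580 and 2709 bp wide in the WT lists and 1731 and 1742 bp in the water lists. The summits lay within 142 bp of each other. Neither auxin list held position 1.

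Position 13, chr9:21682885-21686207, was the one member position in all 6 lists. Its highest peak had a fold of 6.74 in WT DMSO, 9.35 in WT Nutlin-3a, 6.18 with water, 6.35 with water and Nutlin-3a, 4.41 with auxin and 5.95 with auxin and Nutlin-3a. On the −log10 q scale of the authors' caller it stood at 70.3 and 119 in the WT lists, at 23.8 and 37.0 in the water lists, and at 13.0 and 17.3 in the auxin lists. In both WT lists this peak had the highest −log10 q of all members. Its highest peak was 3323 bp wide in WT Nutlin-3a, 1707 bp with water and 2193 bp with water and Nutlin-3a. In the auxin lists it was 738 bp wide without and 697 bp with Nutlin-3a. In WT DMSO and with water the position was split into 2 peaks, and in the other lists it was 1. The summits of its highest peaks lay within 139 bp over the 6 lists.

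Position 5, chr9:21589269-21592541, was listed in every condition but auxin with Nutlin-3a. Its folds were 6.41 and 6.48 in the WT lists, 6.01 and 5.73 in the water lists and 3.65 with auxin. The auxin peak was 500 bp wide, the smallest width in its list, against 860 bp with water and 3273 bp in WT DMSO. This peak had a −log10 q of 4.75. It ranked 47th of 53 by fold in its list. The summits of its highest peaks lay within 208 bp over the 5 lists.

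The other MIR31HG positions common to the 4 lists without auxin were 2, 3, 6, 10, 16, 19 and 20. Position 6, chr9:21610326-21613522, had folds of 5.72 and 8.13 in WT cells without and with Nutlin-3a, and 3.37 and 4.65 with water. Position 3, chr9:21575542-21577131, had 4.87 and 6.87 in WT cells, and 3.52 and 6.70 with water. Both were of higher fold in the Nutlin-3a list of each line. Position 10, chr9:21677036-21678477, had 6.20 and 5.47 in WT cells, and 5.90 and 4.10 with water. Position 20, chr9:21787284-21790047, the last inside the interval, had 6.38 and 5.79 in WT cells, and 4.89 and 3.87 with water. These were of lower fold in the Nutlin-3a list of each line. Position 19, chr9:21781193-21782797, had 4.69 and 5.94 in WT cells, and 5.13 and 5.81 with water. Position 2, chr9:21564604-21565941, had 3.90 and 4.59 in WT cells, and 5.68 and 5.30 with water. Position 16, chr9:21707813-21709961, was the weakest in WT DMSO, with 2.52 there, 3.29 with Nutlin-3a, 5.13 in the water list and 3.04 after water plus Nutlin-3a. Its summits were also the farthest apart, over 1055 bp.

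The other 10 MIR31HG positions were missing from at least 1 list without auxin. Positions 4, 14 and 17 were in both WT lists and with water, and were missing after water plus Nutlin-3a. Position 4 had 3.69 and 3.24 in WT cells and 3.35 with water, and position 14 had 3.47, 3.18 and 3.46. Position 17, split in 2 peaks in each WT list, had 4.76 and 5.57 for the higher one and 2.77 with water. Position 9 was in both WT lists (3.47 with DMSO and 4.93 with Nutlin-3a) and with water and Nutlin-3a (3.73), and not with water alone. Positions 7 and 11 were in the WT lists only. Position 7 had 2.96 with DMSO and 3.65 with Nutlin-3a, and position 11 had 2.57 and 2.91. Positions 8, 12, 15 and 18 were in WT Nutlin-3a only, with folds of 2.05, 2.34, 2.83 and 2.92, all below the list median of 3.41.

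The edges of the MIR31HG interval did not cut through a peak. The last member, position 20, ended 9.95 kb inside the upper edge. Just outside it, 1.78 to 2.66 kb further, the 4 lists without auxin each had a peak, chr9:21801789-21803785 in WT DMSO with a fold of 6.11, and others with 6.04, 4.11 and 3.54 in WT Nutlin-3a, water, and water and Nutlin-3a. Below the interval, the nearest WT DMSO peak was at 6681459 and the nearest WT Nutlin-3a peak at 19379820.

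At MIR100HG, position 7, chr11:122066502-122068815, had the highest fold in 3 of the 4 lists without auxin. It had folds of 4.90 in WT DMSO, 5.65 in WT Nutlin-3a, 2.91 in the water list and 6.75 after water plus Nutlin-3a. With water it was the lowest of the 4 members, at a −log10 q of 3.28 against 25.1 with water and Nutlin-3a. Position 2, chr11:122050918-122052021, had 4.41 and 5.29 in WT cells and 4.61 and 4.17 in the water lists. Its summits lay within 19 bp over the 4 lists, the closest of the 13 positions. Position 8, chr11:122072827-122074381, had 3.66 and 4.71 in WT cells and 3.54 and 4.03 in the water lists, with summits spread over 461 bp.

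The remaining MIR100HG positions were listed in fewer conditions. Position 4, chr11:122056961-122058994, was in both WT lists (4.08 and 3.91) and with water (3.88), and position 5, chr11:122059705-122060668, was in both WT lists (2.09 and 3.22) and with water and Nutlin-3a (4.69). Positions 1 and 6 were in the WT lists only, with folds of 3.69 to 4.17. Position 3, chr11:122052994-122053757, was in WT DMSO only, with a fold of 2.57. The nearest peaks outside the interval were 339 kb or more away on the lower side. On the upper side the nearest was 783 kb away in WT Nutlin-3a.

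**Figure D2:**
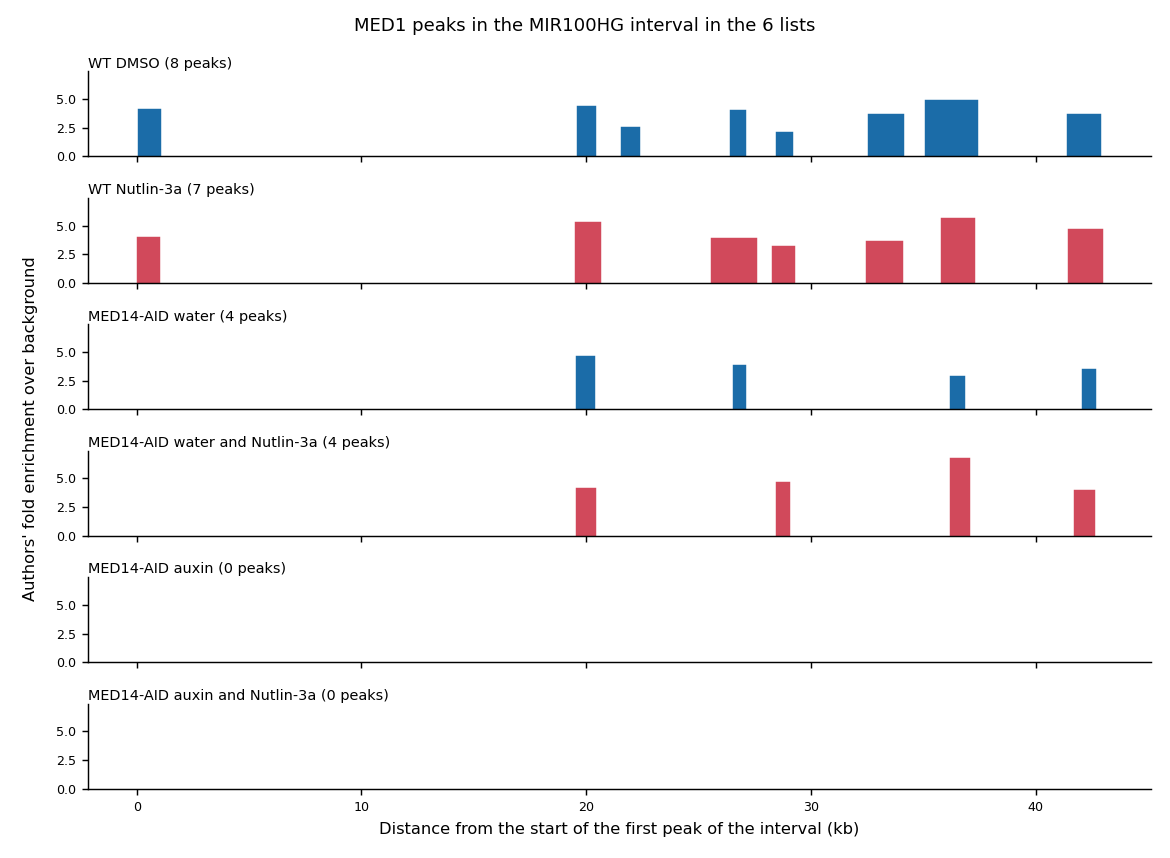
MED1 peaks of the MIR100HG interval, 1 panel per list, with distance from the start of the first peak (kb) across and the authors' fold enrichment over background up; each bar is 1 peak and is as wide as the peak. The WT lists hold 8 and 7 bars, the water lists 4 each, and the auxin lists none.

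The members were spread widely over the ranks of each list. In WT DMSO the median fold was 4.29 for the 18 MIR31HG peaks and 3.89 for the 8 MIR100HG peaks, against 3.19 for the list. In WT Nutlin-3a these were 4.31, 3.97 and 3.41. With water they were 5.01, 3.71 and 4.38, so that the MIR100HG peaks lay below the median of that list. With water and Nutlin-3a they were 5.30, 4.43 and 4.25. Of the MIR31HG peaks, 6 of 18 in WT DMSO were in the strongest 10% by fold (rounded down to whole peaks, 9.95% of the list) and 5 of 22 in WT Nutlin-3a (9.97%). With water 1 of 14 was (9.94%), and with water and Nutlin-3a 1 of 11 (9.96%), in each case position 1. Of the MIR100HG peaks, 0 were in the strongest 10% of any list.

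**Figure D3:**
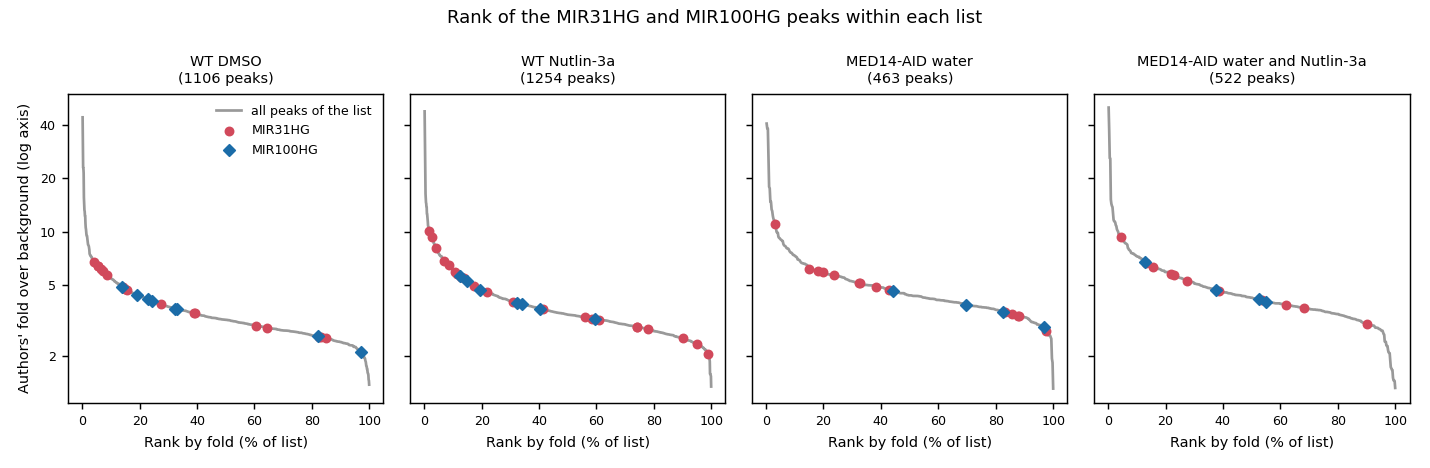
Fold of every peak (log axis) against its rank within its list (percent) for the 4 lists without auxin, with all peaks as a grey line, MIR31HG peaks as circles and MIR100HG peaks as diamonds. MIR31HG peaks are spread over most of the ranks of each list, MIR100HG peaks stand between ranks 155 and 745 of 1254 in WT Nutlin-3a and between 67 and 288 of 522 with water and Nutlin-3a, and the highest MIR31HG peak stands at 11.03 in the water list.

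Most members in WT cells were wide for their list. In WT DMSO, 15 of 18 MIR31HG peaks and 6 of 8 MIR100HG peaks were wider than the list median of 760.5 bp (50.0% of the list), with medians of 1390 and 920 bp. In WT Nutlin-3a, 16 of 22 and 7 of 7 were wider than 818 bp (49.8%). With water, 8 of 14 MIR31HG peaks and 0 of 4 MIR100HG peaks were wider than 833 bp (49.9%). With water and Nutlin-3a, 9 of 11 and 3 of 4 were wider than 830.5 bp (50.0%). Where a WT DMSO member overlapped a water peak, the water peak was the wider one in 0 of 18 pairs, against 22.6% of all such pairs. With Nutlin-3a it was wider in 0 of 15, against 16.6%.

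For Nutlin-3a in WT cells, both lists were compared peak by peak, counting an overlap of 1 bp or more. Nearly all members were in both lists. Of the 29 WT Nutlin-3a members, 4 overlapped no DMSO peak (13.8%, Wilson 95% interval 5.50 to 30.6%), against 35.0% of the whole list, and these were the low MIR31HG positions 8, 12, 15 and 18. The share was 27.6% where a reciprocal overlap of 50% was asked for and 6.9% where a gap of up to 1 kb was allowed. Of the 26 DMSO members, 1 overlapped no Nutlin-3a peak (3.85%, 0.682 to 18.9%), against 26.5%, and it was MIR100HG position 3. With the reciprocal overlap this share was 19.2%, and with the gap it was 0%. Shares of the whole lists were not computed with the reciprocal overlap or the gap, so the list shares above do not match these settings. The intervals count peaks only, and neighbouring peaks of a locus are not independent. The overlapping Nutlin-3a peak had the higher fold for 13 of 18 DMSO members at MIR31HG and 4 of 7 at MIR100HG. Together this was 17 of 25, near the 67.4% of all overlapping pairs. It was wider for 16 of 25, against 61.0%.

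In MED14-AID cells with water, most members were likewise in both lists, and the difference from WT cells was not tested. Of the 15 members with Nutlin-3a, 2 had no overlapping peak in the water list (13.3%, Wilson 95% interval 3.74 to 37.9%), against 31.2%, and these were MIR31HG position 9 and MIR100HG position 5. With both lists limited to a −log10 q of at least 5 this share was 26.7%, and at 10 or more it was 36.4%. A listed water peak below the limit then counts as absent, as at MIR31HG positions 3 and 6 at the limit of 10. Of the 18 members without Nutlin-3a, 4 were absent with it (22.2%, 9.0 to 45.2%), against 22.5%. They were MIR31HG positions 4, 14 and 17 and MIR100HG position 4. With the limit of 5 on both lists this share was 14.3%, and with 10 it was 22.2%. Shares of the whole lists were not computed at these limits. The overlapping Nutlin-3a peak had the higher fold for 7 of 14, against 53.5% of all pairs, and was wider for 11 of 14, against 57.1%.

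**Figure D4:**
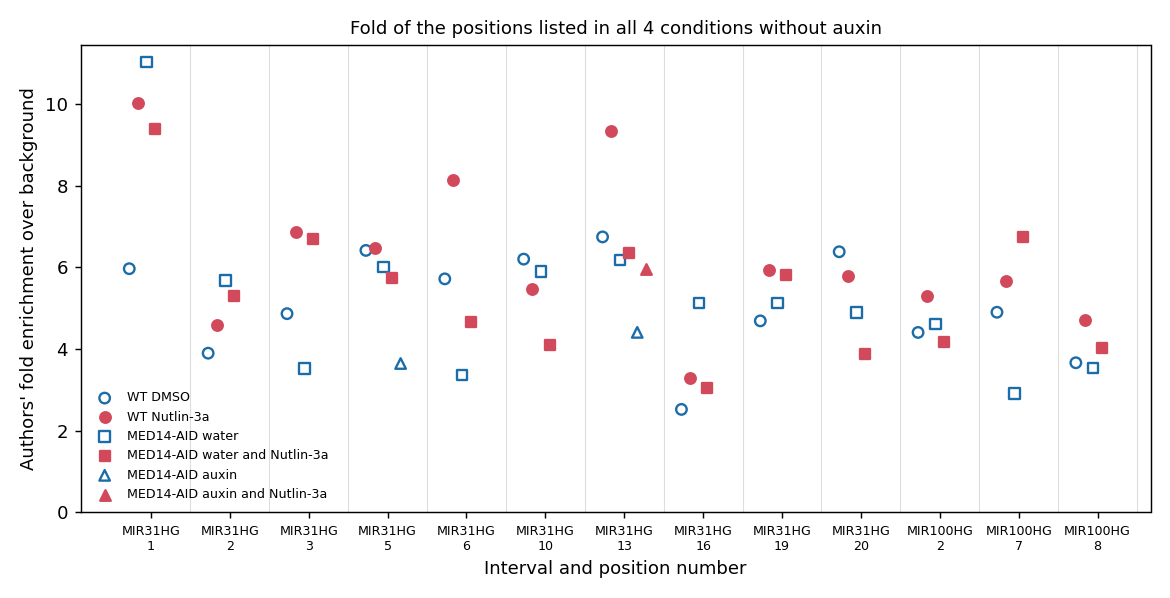
Authors' fold of the highest peak at each of the 13 positions listed in all 4 conditions without auxin (circles WT, squares MED14-AID with water, triangles with auxin; open without and filled with Nutlin-3a). Position 1 of MIR31HG is the highest with water, at 11.03, and the auxin triangles are at positions 5 and 13 only.

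Few members were listed after auxin. Without Nutlin-3a, 2 of 18 water members overlapped an auxin peak (11.1%, Wilson 95% interval 3.10 to 32.8%), against 9.50% of the whole water list. With Nutlin-3a, 1 of 15 did (6.67%, 1.19 to 29.8%), against 9.0%. Both shares were close to those of their lists. With a reciprocal overlap of 50% they were 5.56% and 0%. Without Nutlin-3a the share was 16.7% with a gap of up to 1 kb. With both lists limited to a −log10 q of at least 5 it was 7.14%, and at 10 or more 11.1%. With Nutlin-3a the share was 6.67% with the gap, 6.67% at the limit of 5 and 9.09% at 10. Shares of the whole lists were not computed at these settings. The kept water peaks, MIR31HG positions 5 and 13, ranked 84th and 70th of 463 by fold. Position 1 ranked above both and was not listed with auxin. Position 1 belonged to the strongest 10% of the water list by fold, of which 43.5% were kept with auxin, and to the strongest 10% with Nutlin-3a, of which 51.9% were kept. At MIR100HG, 0 of 4 members were kept in either comparison (Wilson 95% interval up to 49.0%). The intervals count neighbouring peaks of a locus, which are not independent, so they set no bound on the share kept. Weaker binding than the callers' threshold is not seen in these lists, so absence from an auxin list is not absence of MED1.

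The 3 members of the auxin lists lay on peaks of the other lists. Without Nutlin-3a, 2 of 2 auxin members overlapped a water peak, against 83.0% of the auxin list, and with Nutlin-3a 1 of 1 did, against 74.2%. At position 13 the auxin lists overlapped each other, so that 1 of 2 members without Nutlin-3a were also listed with it (62.3% of the list), and 1 of 1 in the other direction (51.5%). The auxin peak had the higher fold in 0 of 2 overlapping pairs (34.1% of all pairs) and was wider in 0 of 2 (20.5%). With Nutlin-3a it was of higher fold in 0 of 1 (34%) and wider in 0 of 1 (34%). Between the auxin lists, the position 13 peak with Nutlin-3a had the higher fold (66.7% of all pairs) and was not the wider one (69.7%). Its summit lay 39 bp from that with auxin alone, and those of positions 5 and 13 with auxin lay 106 and 55 bp from the water summits.

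Comparing the lines, every member of the MED14-AID water lists was also in the matching WT list. This held for 18 of 18 members without Nutlin-3a, against 85.1% of the list, and for 15 of 15 with it, against 86.8%. In the other direction, 18 of 26 WT DMSO members overlapped a water peak (69.2%, Wilson 95% interval 50.0 to 83.5%), against 33.3% of the WT DMSO list. This share was 42.3% with a reciprocal overlap of 50%. With both lists limited to a −log10 q of at least 10 it was 42.1%, and water peaks below the limit then count as absent. With only the 463 strongest WT DMSO peaks by −log10 q and all water peaks kept, it was 84.2%. Shares of the whole list were not computed at these settings. With Nutlin-3a, 15 of 29 WT members overlapped a peak of the matching water list (51.7%, 34.4 to 68.6%), against 33.2%. Line, mock and number of libraries per list differ here at once and cannot be told apart. The water peak had the higher fold for 6 of 18 overlapping members without Nutlin-3a, against 64.4% of all pairs, and 3 of 15 with it, against 48.6%.

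Summits of overlapping members lay close together. Between WT DMSO and WT Nutlin-3a the median distance was 83 bp over 25 pairs, against 79 bp over all 813 pairs of those lists. Between WT DMSO and water it was 62.5 bp over 18 pairs, against 91.5 bp, and between the Nutlin-3a lists of both lines 69 bp over 15 pairs, against 92 bp. Between the water lists it was 124 bp over 14 pairs, against 109 bp. Over the 13 positions in all 4 lists without auxin, the summits spanned a median of 142 bp, against 197.5 bp for the 288 such positions of the series.

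Peaks of a list that stood at most 10 kb apart were joined into clusters. In WT Nutlin-3a, MIR31HG positions 8 to 15 formed a cluster of 8 peaks over 22.3 kb, and 3 of the 832 clusters of that list held more peaks. In WT DMSO the same stretch held 6 peaks over 14.4 kb. The main MIR100HG cluster, positions 2 to 8, held 7 peaks over 23.3 kb in WT DMSO, and 5 of the 782 clusters held more. It held 6 peaks in WT Nutlin-3a and 4 in each water list, over 23.1 kb in both of the latter. In the auxin lists each MIR31HG peak stood alone.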

How the data were processed

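The submitters' processing notes name Bowtie 0.12.9, hg19 and MACS2 2.1.2, and settings are not given in the sources used here. Both replicates of a WT condition name the same list, per the labels, and its peak names call it merged. Whether reads were pooled before peak calling is not given in the sources used here. The deposited fold is a ratio of signal over background from the authors' peak caller, and the deposited −log10 value used here is that of its q. The summit offset (bases from the peak start) is also as the authors deposited it. Lists were compared by overlaps of 1 bp or more, pairing each peak with the overlapped peak of highest fold. Shares have Wilson 95% intervals. Overlap counts were checked on 300 WT DMSO peaks, copied and shifted so that each still overlapped its original among the 1106. Recovery of 300 of 300 was thus fixed by the design of that check. The counts were also compared with those of bedtools 2.31.1 (0 of 30 list pairs differed). Work ran in Python 3.11.15 with matplotlib 3.10.9, scipy 1.17.1, pandas 2.3.3 and numpy 2.4.6. All member peaks were reported. Described one by one were positions in all 4 lists without auxin, the highest fold of each interval and positions in an auxin list. The intervals, lists and comparisons were chosen with earlier results of these data known. Positions are 1-based. Inputs have no peak list and were not analysed here.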

Additional observations from a re-analysis of the deposited data

Results flagged for a closer look

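The number of MIR31HG peaks went opposite ways with Nutlin-3a in the 2 lines, by 4 peaks up in WT cells (18 to 22) and by -3 in MED14-AID cells with water (14 to 11). The difference was not tested, since each condition has 1 list. Split positions enter these numbers. Position 13 was 2 peaks with water and in WT DMSO and 1 in the matching Nutlin-3a lists. Position 5 was 2 peaks in WT Nutlin-3a and 1 in WT DMSO. With the 463 strongest peaks of each list by −log10 q, the WT numbers were 13 without and 12 with Nutlin-3a, and the MED14-AID numbers 14 and 11, so the WT direction turned.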

How the results depend on the processing

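All alternatives here were planned. Over 61 of them, 44 values stayed within their interval (counts within 1.5 times) and 17 did not, and the cause was not tested unless named. With lists of equal length, which hold fewer and stronger peaks by construction, WT Nutlin-3a had 18 members among its 463 strongest peaks. For overlap with the water lists, each WT list was cut to the length of the matching water list. The share of WT members was then 84.2% without Nutlin-3a (16 of 19, from 463 peaks). With Nutlin-3a it was 70.0% (14 of 20, from 522 peaks). Each −log10 q limit was put on both lists of a comparison, so a listed peak below it counts as absent. Shares of the whole lists were not computed under the alternatives. At a −log10 q of at least 10, 9 water members were left. Of the WT DMSO members left at that limit, 42.1% overlapped a water peak that also passed it. The auxin list kept 1 member at a limit of 5 and 1 at 10. WT DMSO members absent with Nutlin-3a were 0% at a limit of 5, 0% with a gap of up to 1 kb and 19.2% with a reciprocal overlap of 50%. With that reciprocal overlap, 42.3% of WT DMSO members overlapped a water peak, and 0% of members were kept under auxin with Nutlin-3a, where peaks were narrower. A joining gap of at most 25 kb gave 4 clusters in each of WT DMSO, WT Nutlin-3a, water, and water with Nutlin-3a, and a gap of 5 kb gave 12 with water. No paired analysis was possible because each WT condition has 1 list for both replicates, so replicates could also not be left out in turn. Depth is unknown, which limits every count of peaks.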
